A study of Mus musculus with 11 samples.

Results

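The collagen genes of the mouse testis were followed at postnatal day 21 (P21) in wild type (WT) and Rfx2-/- mice. They were taken by name as every gene whose symbol in the GENCODE M21 annotation reads Col, a number, the letter a and a second number, and all 44 genes of this form in the annotation were among the 23074 genes of the count table. A filter on low counts left 15745 genes for testing, of which 42 were collagen genes; Col10a1 and Col19a1 did not pass. RNA was taken from whole testes without their capsule, so that reads of germ cells and somatic cells were mixed, and fewer cells of a type and less RNA per cell cannot be told apart. Which cells made the collagen transcripts was therefore not measured, and the genes are called collagen genes here without a cell type.

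RFX2 is a transcription factor of the regulatory factor X family, and the study asked how spermatogenesis proceeds without it. Of the mice, 5 were wild type (WT1 to WT5) and 6 were homozygous for an Rfx2 allele without exon 7 (KO6 to KO11). All 11 came from a mixed C57BL/6, 129/Sv and FVB/N background, so that the mice were not genetically uniform, and the Rfx2-/- mice lack the exon in every cell because a ubiquitous ACTB-cre line removed it. The labels give each library as a sample of its own, named here as a mouse. The study's methods say that littermates of one age were taken where this could be done, and the labels do not say which samples share a litter, so p-values measure the spread between these samples. Reads on the whole Rfx2 gene amounted to 472, 380, 218, 368 and 191 CPM (counts scaled to library size) in WT1 to WT5 and to between 282 and 324 CPM in the Rfx2-/- mice. Most of the gene lies outside the deleted exon, and this value checks nothing about the deletion. Total counts lay between 22232097 and 29769483 per mouse, and a count of 3 corresponded to 0.0852 to 0.139 CPM.

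Collagens are proteins of the extracellular matrix in which chains with a repeated glycine motif wind around each other as a triple helix. Fibrillar collagens pack into fibrils, type IV collagen forms the sheet of basement membranes, type VI collagen forms beaded filaments, and fibril-associated collagens sit on the surface of fibrils. In the testis, a basement membrane and layers of collagen fibrils surround each seminiferous tubule, and peritubular myoid cells and Sertoli cells are known to lay down much of this wall. The interstitium between tubules holds Leydig cells, fibroblasts, macrophages and vessels.

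Promoter windows are shown for Col9a1, which carried the widest genotype difference of the collagen genes, and for Col4a1 and Col4a2, which are read in opposite directions from one region. Each window spans 250 bases before and 50 bases from a gene's start in RefSeq (GRCm38.p6) and is printed in the direction of the gene. Capitals mark matches on either strand to a short motif of the RFX factors, read here as GTTNCC, to the CCAAT box and to the GC box, read as GGGCGG. The first window of Col9a1 lies on the plus strand at chr1:24177360-24177659 and holds no match, and the second, for a start 17593 bases downstream, lies at chr1:24194953-24195252 and holds a CCAAT box at base -18. Col4a1 is on the minus strand with its window at chr8:11312777-11313076, and Col4a2 is on the plus strand at chr8:11312555-11312854.
Col9a1, first start: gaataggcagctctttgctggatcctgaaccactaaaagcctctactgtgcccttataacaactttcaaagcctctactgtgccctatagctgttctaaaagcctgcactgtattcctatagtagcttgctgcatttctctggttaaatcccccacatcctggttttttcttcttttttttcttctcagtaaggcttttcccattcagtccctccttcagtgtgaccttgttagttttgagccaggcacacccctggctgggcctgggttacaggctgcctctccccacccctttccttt
Col9a1, second start: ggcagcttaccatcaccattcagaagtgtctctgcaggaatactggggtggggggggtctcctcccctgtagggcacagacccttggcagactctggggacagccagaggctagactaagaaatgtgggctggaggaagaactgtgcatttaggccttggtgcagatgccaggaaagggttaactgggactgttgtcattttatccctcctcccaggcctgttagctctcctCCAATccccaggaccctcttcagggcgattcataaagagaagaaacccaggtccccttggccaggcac
Col4a1: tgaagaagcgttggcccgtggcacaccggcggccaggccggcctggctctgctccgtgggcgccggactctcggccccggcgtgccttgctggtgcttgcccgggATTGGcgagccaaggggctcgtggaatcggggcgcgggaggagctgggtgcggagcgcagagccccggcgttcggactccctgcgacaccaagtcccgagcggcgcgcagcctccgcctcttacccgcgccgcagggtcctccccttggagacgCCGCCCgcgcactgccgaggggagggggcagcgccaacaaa
Col4a2: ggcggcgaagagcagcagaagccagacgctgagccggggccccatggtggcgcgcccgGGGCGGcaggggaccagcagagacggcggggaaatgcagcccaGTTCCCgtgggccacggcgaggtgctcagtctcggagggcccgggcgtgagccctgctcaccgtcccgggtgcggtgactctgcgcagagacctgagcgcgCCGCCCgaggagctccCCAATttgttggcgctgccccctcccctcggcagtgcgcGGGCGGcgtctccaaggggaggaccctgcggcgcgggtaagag

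The windows of Col4a1 and Col4a2 share 78 bases, from 11312777 to 11312854 of chromosome 8, and the same GC box at 11312812 to 11312817 is in capitals in both sequences. Their G and C content was 74% and 73.7%, against a median of 52.7% over all 32851 windows of the table, and 47.3% and 55.7% in the windows of Col9a1. Windows were at hand for 35 of the 44 genes, 38 windows in all. A GC box was present in 60.5% of the collagen windows and in 35.7% of all windows. CCAAT was found in 34.2% and 37.4%, the TATA box (TATAAA) in 13.2% and 13.6%, and the RFX motif in 31.6% and 45.3%. A facing pair of RFX motifs with 2 bases between them was present in 0.451% of all windows and in 0 of the 38 collagen windows. These letters may recur by chance, and overlapping windows are not independent.

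Levels of the collagen genes ranged widely within a testis. Per kb of merged exon, Col3a1 was the highest in WT testis with 64.2 ± 14.3 RPKM (CPM per kb; SD, n = 5), followed by Col1a2 with 58.7 ± 17.8 RPKM and Col18a1 with 44.1 ± 16.8 RPKM. These leading genes overlapped within their spread. Col4a1 (34.0 ± 9.98 RPKM), Col6a1 (26.5 ± 8.54 RPKM), Col1a1 (26.1 ± 7.19 RPKM), Col16a1 (24.2 ± 7.53 RPKM) and Col4a2 (22.6 ± 7.46 RPKM) came next, with SDs that overlapped from neighbour to neighbour. Over 10 RPKM in at least one genotype were 10 genes, the remaining ones being Col6a2 in WT and Col2a1 in Rfx2-/- testis. By contrast, 15 genes lay under 1 RPKM in both genotypes. Col10a1, a collagen of hypertrophic cartilage, had at most 7 counts in any mouse, and Col19a1 had between 1 and 48 counts.

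Summed over the 44 genes, collagen transcripts made up 2106, 2334, 2960, 1664 and 2817 CPM in WT1 to WT5 and 1671 to 1950 CPM in the Rfx2-/- mice. The means were 2376 ± 528 CPM (SD, n = 5) and 1819 ± 117 CPM (SD, n = 6). WT1, WT2, WT3 and WT5 stood above every Rfx2-/- mouse and WT4 below the lowest of them, so the genotypes overlapped through WT4 alone, and the spread was wider among WT mice. The same mice recurred across genes: WT3 or WT5 was the highest WT mouse for 27 of the 42 tested genes, WT1 for 14, and WT4 was the lowest for 26. How often these mice were highest or lowest over all tested genes was not counted. Fibrillar collagens gave 37.2% to 43.7% of the collagen CPM in each mouse and type IV collagens 18.6% to 26.1%. The fibril-associated share varied most, from 4.78% in WT5 to 18.0% in KO7.

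**Figure D1:**
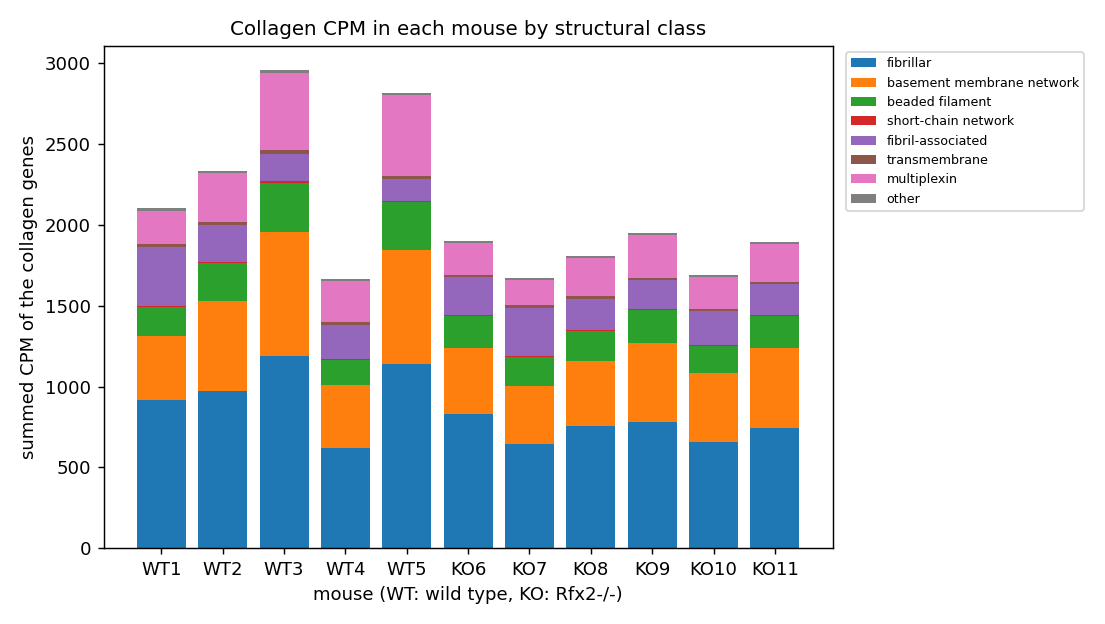
Summed CPM of the collagen genes in each mouse (WT, wild type; KO, Rfx2-/-), stacked by structural class. WT3 and WT5 reach 2960 and 2817 CPM, the Rfx2-/- mice lie between 1671 and 1950 CPM, and WT4 is lowest with 1664 CPM.

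Between genotypes, 2 of the 42 tested collagen genes were called lower in Rfx2-/- testis (quasi-likelihood test of edgeR, p-values adjusted over all tested genes after Benjamini and Hochberg, threshold 0.01), the fibril-associated Col9a1 and Col14a1. Of all tested genes, 1.94% were called lower. No collagen gene was called higher, where 0.730% of all genes were; DESeq2 and limma voom also called 0 higher, and at an unadjusted p of at most 0.05 edgeR gave 18 lower and 1 higher, where 23.7% of all genes were lower and 18.1% higher. At an adjusted p of at most 0.05, 8 collagen genes were lower (8.78% of all genes) and 0 higher (6.15%). Negative log2 fold changes were found for 33 of the 42 genes against 54.8% of all genes, and the median was -0.40 against -0.05 for all genes. With total counts as library sizes these medians were -0.59 and -0.22, so part of any fall on that scale is shared by all genes. In 3 genes every Rfx2-/- mouse lay below every WT mouse (5.20% of all genes) and in 1 every Rfx2-/- mouse lay above (6.50%).

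Markers of cell types were read beside the collagens. Their summed levels overlapped between genotypes in every list, the lists themselves were not tested, and the Leydig cell gene Hsd3b1 was the one marker called (lower). All 10 Sertoli cell markers had negative log2 fold changes, with a summed level of 854 to 1545 CPM in WT and 820 to 1033 CPM in Rfx2-/- mice. Of 9 Leydig cell markers 8 were negative (167 to 374 against 105 to 334 CPM), of 7 stromal fibroblast markers 5 (274 to 472 against 254 to 332 CPM), of 7 macrophage markers 7 (100 to 158 against 84.4 to 118 CPM), of 8 endothelial markers 7 (38.3 to 72.6 against 44.3 to 49.6 CPM) and of 7 peritubular myoid markers 4 (345 to 636 against 401 to 517 CPM). The spermatogonia list, of germ cells, was similar, with 6 of 7 markers negative (281 to 580 against 273 to 388 CPM), whereas 3 of 9 spermatocyte markers (4322 to 6474 against 6063 to 6578 CPM) and 4 of 10 round spermatid markers (9.30 to 470 against 28.4 to 599 CPM) were negative. In no list was a marker at or under 3 counts in every mouse. The somatic covariate was the mean of the Sertoli, Leydig and peritubular myoid cell markers, Hsd3b1 included, without the fibroblast, macrophage and endothelial markers. This covariate was 4.93, 5.07, 5.07, 4.58 and 5.05 in WT1 to WT5 and 4.40 to 4.91 in the Rfx2-/- mice. Genotype and covariate are thus partly mixed, and a fit that holds both cannot fully separate them. With the somatic covariate in the fit, the median log2 fold change of the collagen genes was -0.09 against -0.04 for all genes. Of the 42, 29 were negative (54.4% of all genes), and Col9a1 alone was called. Col14a1 lost its call in that fit with a wider difference (-1.33, adjusted p = 0.0345), and Col11a1 had -0.88 (adjusted p = 0.251). With the mean of the round spermatid markers as the covariate instead, the median of the collagen genes was -0.30 against -0.04 for all genes. There 35 collagen genes were negative (54.6% of all genes), and Col9a1, Col14a1 and Col26a1 were called. The part of these markers in each gene's difference was not tested beyond these fits.

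**Figure D2:**
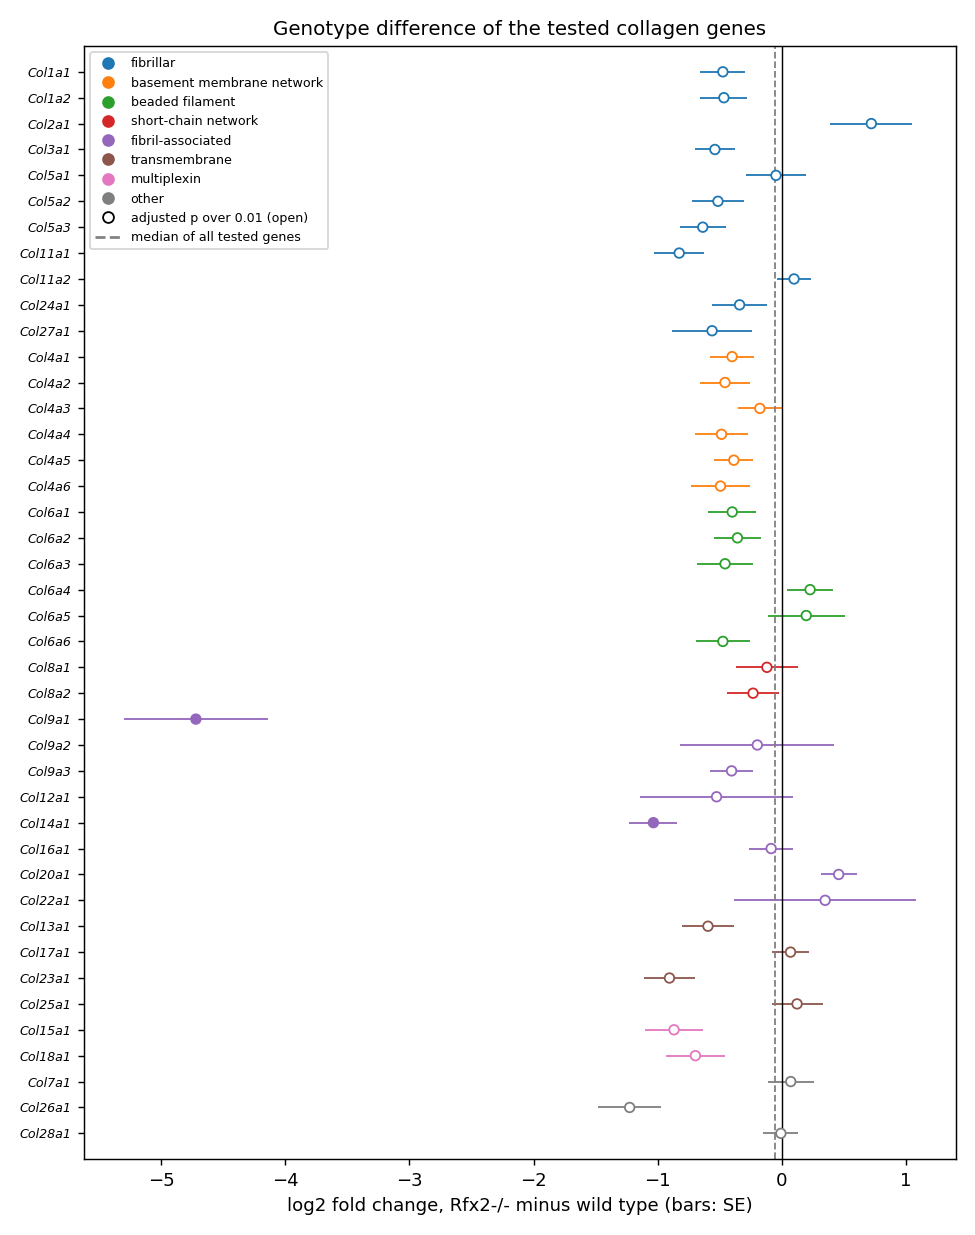
Log2 fold change (Rfx2-/- minus wild type) of the 42 tested collagen genes with its standard error, coloured by structural class. Filled points are Col9a1 and Col14a1, with an adjusted p under 0.01, and 33 of the 42 points lie below 0.

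Type IX collagen, a heterotrimer of the Col9a1, Col9a2 and Col9a3 chains, decorates the surface of cartilage fibrils. Col9a1 (ENSMUSG00000026147) lies on chromosome 1 of GRCm38 from 24177610 to 24252684. It reached 5.74, 4.61, 1.90, 4.91 and 2.39 CPM in WT1 to WT5 and 0 to 0.330 CPM, with a median of 0.0870 CPM, in the Rfx2-/- mice. That is 583 counts summed over the WT mice and 20 over the Rfx2-/- mice, where single libraries held 0 to 8 counts. No Rfx2-/- mouse came near the lowest WT mouse, and 4 of the 6 had fewer than 3 counts. The fitted log2 fold change was -4.72 ± 0.58 (SE), about 26.4-fold lower, with an adjusted p of 0.000719. The call held in all fits tried, with each of the 11 mice left out in turn included.

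For the partner chains of Col9a1 the fitted differences were smaller and did not pass the test; the contrast between the chains was not tested. Col9a3 (chromosome 2) had 6.84, 4.88, 6.25, 4.03 and 5.69 CPM in WT1 to WT5 and 3.19 to 5.09 CPM, with a median of 4.16 CPM, in Rfx2-/- mice (log2 fold change -0.40 ± 0.17, adjusted p = 0.101, edgeR). Its exons share 234 nt with those of Tcfl5 on the opposite strand, where reads may have been left out by the authors' counting if it did not use strand. Col9a2 was near the floor, with 0.505 to 1.08 CPM in WT and 0.0413 to 1.60 CPM in Rfx2-/- mice, and its log2 fold change of -0.20 had a standard error of 0.62 and turned to 0.05 without KO7. Col19a1, the next collagen gene on chromosome 1, has its own exons on the other strand from 24261890 to 24587472. It was listed at 0.0629 to 1.69 CPM in WT and 0.0399 to 0.702 CPM in Rfx2-/- mice, with WT1 highest.

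Col14a1 encodes type XIV collagen, which binds the surface of type I fibrils. Levels were 21.8, 17.1, 17.1, 15.1 and 14.9 CPM in WT1 to WT5, and in the Rfx2-/- mice the lowest was 5.75, the median 7.42 and the highest 11.6 CPM. The genotypes did not overlap. The log2 fold change was -1.03 ± 0.19, a 2.05-fold lower level, with an adjusted p of 0.00886 (edgeR). This lies close to the threshold: the call was lost when any of WT1 to WT5, KO6, KO7, KO10 or KO11 was left out and kept without KO8 or KO9, and adjusted p ranged from 0.00704 to 0.0278 over these fits.

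**Figure D3:**
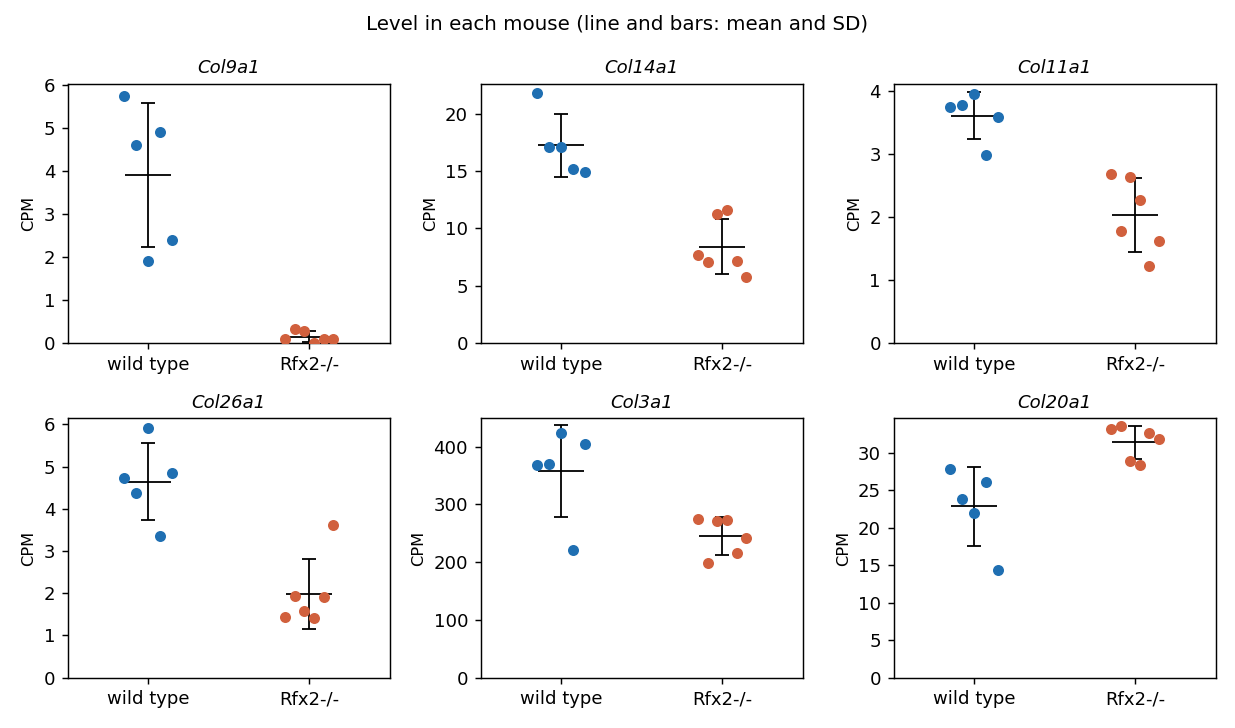
CPM of 6 collagen genes in each wild type and Rfx2-/- mouse (points) with the mean and SD of each genotype. The genotypes are apart for Col9a1, Col14a1, Col11a1 and Col20a1, whereas KO11 reaches the wild type range for Col26a1 and WT4 the Rfx2-/- range for Col3a1.

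The other fibril-associated collagens were not called. Col20a1 had 27.8, 23.8, 21.95, 26.1 and 14.3 CPM in WT1 to WT5 and 28.3 to 33.5 CPM, with a median of 32.2 CPM, in Rfx2-/- mice. It was the only member with every Rfx2-/- mouse above every WT mouse, and its log2 fold change was 0.46 ± 0.15 (adjusted p = 0.0549, edgeR); its exons share 79 nt with BX649560.1 on the same strand. Col16a1, the most abundant of this class per length, varied more among WT mice (188, 146, 106, 147 and 80.7 CPM) than among Rfx2-/- mice (116 to 134 CPM, median 126 CPM). Its log2 fold change of -0.09 ± 0.18 (adjusted p = 0.715) turned positive without WT1. Col12a1 was high in WT1 alone, with 7.12, 2.46, 0.682, 1.05 and 0.503 CPM in WT1 to WT5 and 1.13 to 2.52 CPM, median 1.45 CPM, in the Rfx2-/- mice. Its log2 fold change was -0.53 ± 0.62 (adjusted p = 0.521) and 0.48 without WT1, so WT1 decides its sign.

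Among the fibrillar collagens, 9 of 11 genes had negative log2 fold changes (54.8% of all genes), 3 were lower at an adjusted p of 0.05 (8.78% of all genes) and none passed 0.01. Type III collagen, encoded by Col3a1 alone, forms fibrils together with type I in extensible tissues. Col3a1 had 367, 371, 423, 221 and 404 CPM in WT1 to WT5 and 198 to 274 CPM, with a median of 257 CPM, in Rfx2-/- mice. Every Rfx2-/- mouse lay below 4 of the WT mice, but WT4 fell within their range. The log2 fold change was -0.54 ± 0.16 (adjusted p = 0.0456) and the gene passed 0.01 only without WT4, with an adjusted p of 0.00513.

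Type I collagen, the main protein of connective tissue fibrils, is built from the chains of Col1a1 and Col1a2. Col1a1 had 137, 148, 199, 96.8 and 195 CPM in WT1 to WT5 against 84.8 to 127 CPM (median 118 CPM) in Rfx2-/- mice. Col1a2 had 268, 323, 427, 193 and 413 CPM against 188 to 263 CPM (median 249 CPM). Both overlapped through WT4, with log2 fold changes of -0.47 ± 0.18 (adjusted p = 0.0821) and -0.47 ± 0.19 (adjusted p = 0.0927). These 2 chains and Col20a1, Col9a2 and Col9a3 were named after their values were seen.

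Minor fibrillar chains of type V and type XI collagen, which enter the core of thicker fibrils, differed among themselves. Col11a1 had 3.73, 3.77, 3.95, 2.98 and 3.58 CPM in WT1 to WT5 and 1.22 to 2.67 CPM, with a median of 2.02 CPM, in Rfx2-/- mice, without overlap (log2 fold change -0.83 ± 0.20, adjusted p = 0.0271). Col5a3 had 6.52, 8.68, 10.5, 4.87 and 9.62 CPM against 4.29 to 5.66 CPM (median 5.39 CPM), where WT4 overlapped the Rfx2-/- mice (log2 fold change -0.64 ± 0.19, adjusted p = 0.0449). Col2a1, the chain of the main cartilage fibril, went the other way on average, with 67.0, 46.3, 21.9, 46.3 and 17.2 CPM in WT1 to WT5 and 45.1 to 86.1 CPM (median 68.8 CPM) in Rfx2-/- mice. The difference of 0.72 ± 0.33 on the log2 scale did not pass (adjusted p = 0.121). Col27a1 had 11.1, 4.47, 4.43, 2.73 and 3.39 CPM against 2.77 to 4.42 CPM (median 3.62 CPM), and WT1 stood apart from all other mice (log2 fold change -0.56 ± 0.32, adjusted p = 0.200, and -0.09 without WT1). Col5a1, Col5a2, Col11a2 and Col24a1 overlapped between genotypes at mean levels of 5.37, 2.57, 1.24 and 0.480 RPKM in WT testis, and Col11a2 and Col2a1 were the 2 fibrillar genes with a positive log2 fold change.

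All 6 type IV genes, which encode the network of basement membranes, had negative log2 fold changes and none passed an adjusted p of 0.05. They lie in pairs that are read away from each other. Col4a1 and Col4a2 on chromosome 8 overlap by 22 nt at their starts, the starts of Col4a3 and Col4a4 on chromosome 1 have 71 bases between them, and those of Col4a5 and Col4a6 on chromosome X have 1308. Col4a1 had 157, 231, 296, 160 and 286 CPM in WT1 to WT5 and 146 to 197 CPM (median 167 CPM) in Rfx2-/- mice, with a log2 fold change of -0.40 ± 0.18. Col4a2 had 94.5, 145, 197, 101 and 190 CPM against 82.8 to 126 CPM (median 102 CPM), with -0.46 ± 0.20. For both, WT2, WT3 and WT5 lay above every Rfx2-/- mouse and WT1 and WT4 among them.

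Col4a3 and Col4a4, chains of a second type IV network, were also highest in WT3 and WT5. Col4a3 had 48.4, 68.8, 105, 55.3 and 90.7 CPM in WT1 to WT5, and Rfx2-/- mice were tightly grouped from 61.0 to 70.02 CPM (median 65.0 CPM). Its log2 fold change of -0.18 ± 0.18 turned positive in limma voom and with the somatic covariate. Col4a4 had 51.9, 67.1, 106, 43.8 and 82.2 CPM against 40.8 to 63.0 CPM (median 48.5 CPM), with -0.49 ± 0.22, and it too turned positive, to 0.02, with the somatic covariate. Col4a5 had 31.6, 38.5, 52.1, 27.9 and 45.5 CPM against 24.7 to 33.5 CPM (median 29.8 CPM; log2 fold change -0.39 ± 0.16). Its neighbour Col4a6 had 7.22, 9.59, 13.8, 4.91 and 12.3 CPM against 5.43 to 7.66 CPM (median 7.06 CPM; -0.49 ± 0.24). Adjusted p-values of the 6 genes lay between 0.0914 for Col4a5 and 0.451 for Col4a3 (edgeR).

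The multiplexins Col15a1 and Col18a1 join basement membranes to the matrix beneath, and a fragment of the Col18a1 chain is known as endostatin. Col15a1 had 25.2, 36.2, 56.0, 21.8 and 51.0 CPM in WT1 to WT5 and 17.2 to 25.3 CPM, with a median of 20.6 CPM, in Rfx2-/- mice (log2 fold change -0.87 ± 0.24, adjusted p = 0.0368). Col18a1 had 179, 267, 422, 233 and 446 CPM against 132 to 240 CPM, with a median of 192 CPM (-0.70 ± 0.24, adjusted p = 0.0638). In both, WT3 and WT5 were the highest mice of the study and at least 1 WT mouse lay within the Rfx2-/- range.

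Type VI collagen, a filament around cells and vessels, is assembled from Col6a1, Col6a2 and one further chain. Col6a1 had 76.4, 109, 143, 70.5 and 144 CPM in WT1 to WT5 and 68.0 to 93.3 CPM, with a median of 83.9 CPM, in Rfx2-/- mice (log2 fold change -0.40 ± 0.19, adjusted p = 0.136). Col6a2, Col6a3 and Col6a6 were negative as well, whereas Col6a4 and Col6a5 were positive, and none of the 6 passed an adjusted p of 0.05. Mean levels in WT testis were 10.3 RPKM for Col6a2, 3.12 for Col6a3, 3.42 for Col6a4, 0.309 for Col6a5 and 0.297 for Col6a6. Col8a2, the higher of the 2 type VIII genes, which form short-chain networks, had 5.11, 5.45, 7.01, 4.24 and 7.10 CPM against 3.43 to 6.58 CPM, with a median of 5.02 CPM (-0.23 ± 0.21, adjusted p = 0.400). Col8a1 had 0.205 ± 0.0703 RPKM in WT testis.

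Of the collagens that span the cell membrane, Col23a1 had 3.98, 3.23, 5.68, 2.52 and 4.72 CPM in WT1 to WT5 and 1.65 to 2.61 CPM, with a median of 2.12 CPM, in Rfx2-/- mice (log2 fold change -0.90 ± 0.20, adjusted p = 0.0215). WT4 was the single WT mouse within the Rfx2-/- range, and without it the adjusted p was 0.00785. Col13a1 had 3.14, 3.87, 4.26, 2.31 and 5.75 CPM against 2.15 to 3.14 CPM, median 2.59 CPM (-0.59 ± 0.21, adjusted p = 0.0679). Col17a1, a component of hemidesmosomes, and Col25a1 had 0.896 ± 0.119 and 0.864 ± 0.178 RPKM in WT testis, with positive log2 fold changes that did not pass.

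Col26a1, a short collagen first described in testis and ovary, had 4.72, 4.37, 5.91, 3.36 and 4.84 CPM in WT1 to WT5 and 1.42 to 3.61 CPM, with a median of 1.74 CPM, in Rfx2-/- mice. Only KO11 overlapped the WT range. The log2 fold change was -1.23 ± 0.25, about 2.34-fold lower, with an adjusted p of 0.0150 (edgeR), and without KO11 it was -1.48 with an adjusted p of 0.00141. DESeq2 also called this gene, together with Col11a1, Col15a1 and Col23a1, at adjusted p-values of 0.000202 to 0.00530. Col28a1 had 6.24, 4.24, 5.54, 4.28 and 4.15 CPM against 3.96 to 5.61 CPM, median 4.86 CPM (log2 fold change -0.01 ± 0.14, adjusted p = 0.974), and its sign turned with DESeq2's size factors. Col7a1, the collagen of anchoring fibrils, had 0.633 ± 0.208 RPKM in WT and 0.666 ± 0.0381 RPKM in Rfx2-/- testis.

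Ratios between chains of one collagen type were steady across mice for some pairs and variable for others. These ratios of RPKM were taken for 8 pairs of one collagen type, which were picked after the values were seen and are given without a test. Col1a1 was 0.421 to 0.476 times Col1a2 in the 11 mice, although Col1a2 itself ran from 188 to 427 CPM. Col6a1 was 2.36 to 2.80 times Col6a2 and Col4a1 was 1.45 to 1.71 times Col4a2. For Col4a3 over Col4a4 the ratio was 1.10 to 1.49 in WT and 1.27 to 1.80 in Rfx2-/- mice. Col4a5 over Col4a6 ran from 3.77 to 5.78 and Col8a2 over Col8a1 from 3.68 to 10.8 over the 11 mice. Col11a2 over Col11a1 was the pair without overlap, with 2.74, 2.15, 3.29, 3.11 and 2.16 in WT1 to WT5 and 3.44 to 9.34 in the Rfx2-/- mice, highest in KO10. Levels of Col11a1 alone did not overlap either, whereas those of Col11a2 did, so this ratio is not a separate result. Col5a1 over Col5a2 was 1.78 to 2.85 in all mice but KO7, where it reached 5.86 through a Col5a1 level of 66.3 CPM beside a Col5a2 level of 8.83 CPM.

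**Figure D4:**
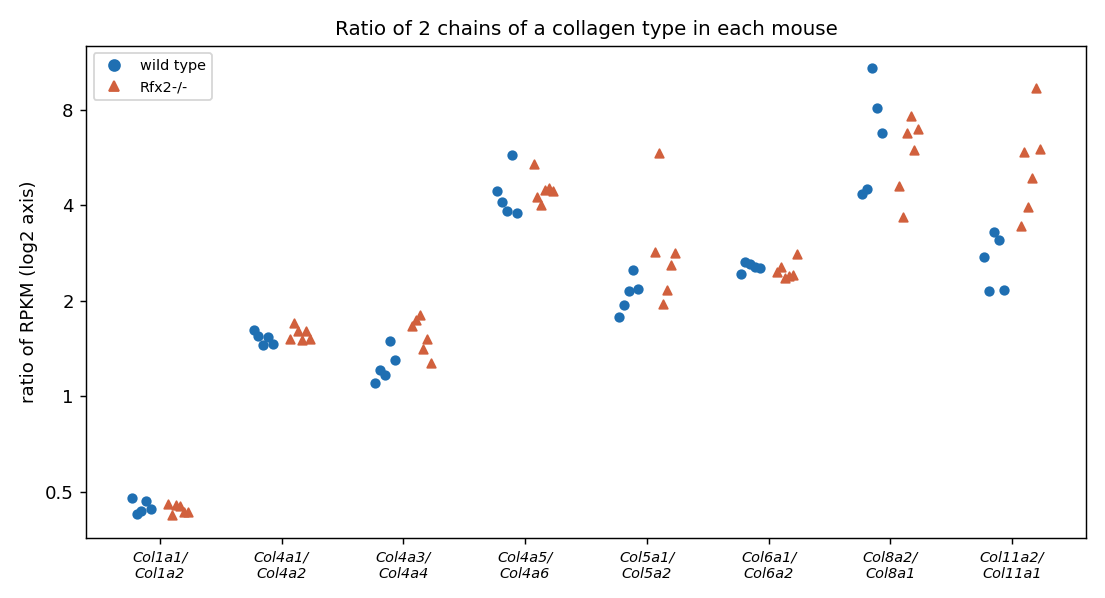
Ratio of the RPKM of a pair of chains of one collagen type in each mouse (log2 axis; circles, wild type; triangles, Rfx2-/-). Col1a1 over Col1a2 stays between 0.421 and 0.476, whereas Col11a2 over Col11a1 is 2.15 to 3.29 in wild type and 3.44 to 9.34 in Rfx2-/- mice.

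At P21 the first round spermatids appear, and the mice differed in their levels of round spermatid markers. A score of 10 round spermatid markers (mean log2 CPM) was 5.43, 3.16, 0.31, 0.55 and -0.97 in WT1 to WT5, and 4.19, 5.64, 0.81, 0.97, 3.24 and 2.53 in KO6 to KO11. Both genotypes thus held mice with low and with high scores, but they were not balanced. WT3, WT4 and WT5 scored below every Rfx2-/- mouse, so genotype and score are partly mixed. The score is read from RNA, and the stage reached in each mouse was not measured. Its markers did not all move alike: Acrv1 was 61.9 CPM in WT1 and 59.4 CPM in KO6, whereas Tnp1 was 43.4 and 6.19 CPM. Slopes on this score were fitted across all genes with genotype as a term, a comparison added after the data were seen. Of the 42 collagen genes, 5 rose with the score at an adjusted p of at most 0.01, where 16.0% of all genes did, and 1 fell, where 13.4% of all genes did.

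Col22a1, a fibril-associated collagen of tissue junctions such as that of muscle and tendon, followed the score most closely. Its levels were 99.5, 30.9, 15.6, 10.8 and 14.9 CPM in WT1 to WT5 and 60.2, 119, 11.6, 13.4, 34.2 and 24.1 CPM in KO6 to KO11. The high-score mice WT1, KO6 and KO7 were highest whatever their genotype. The slope was 0.54 ± 0.05 (SE) log2 units per unit of score, with an adjusted p of 1.03e-05, and 0.60 without WT5 and KO7, the mice farthest from the median score. Between genotypes Col22a1 overlapped completely.

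The other 4 genes with a positive slope were Col12a1 (0.44 ± 0.07, adjusted p = 0.000806), Col2a1 (0.23 ± 0.05, adjusted p = 0.00244), Col6a5 (0.23 ± 0.04, adjusted p = 0.000640) and Col27a1 (0.20 ± 0.05, adjusted p = 0.00614). Levels of Col6a5 were 4.93, 3.23, 1.99, 2.94 and 1.32 CPM in WT1 to WT5 and 2.17 to 4.71 CPM, highest in KO7, in Rfx2-/- mice. Col18a1 fell with the score (-0.17 ± 0.03, adjusted p = 0.00137). WT1 carried much of this: without it Col22a1 alone kept an adjusted p of at most 0.01 among the rising genes, no collagen gene was called falling, and adjusted p-values were 0.0245 for Col12a1, 0.0295 for Col2a1, 0.0121 for Col6a5, 0.185 for Col27a1 and 0.0221 for Col18a1. Without WT5 and KO7, Col22a1 and Col12a1 passed. Without WT4, 13 collagen genes were called falling, and the share of all genes called falling in that fit was not taken. Col9a1 and Col14a1 had slopes of 0.19 ± 0.09 and -0.01 ± 0.04 that did not pass, and both were called lower in Rfx2-/- testis with the score as a covariate.

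**Figure D5:**
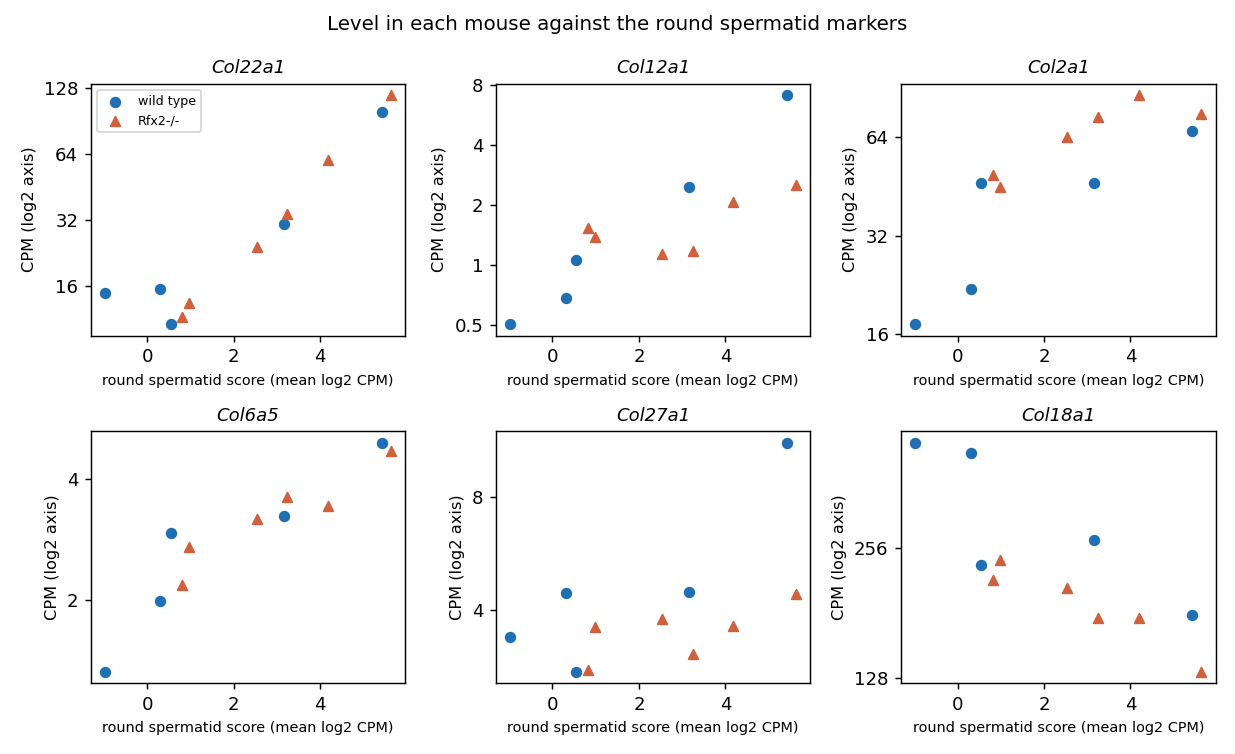
CPM (log2 axis) of 6 collagen genes against the round spermatid score of each mouse (circles, wild type; triangles, Rfx2-/-). Col22a1 runs from 10.8 to 119 CPM along the score in both genotypes, and Col18a1 runs the other way.

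WT1 also stood apart in markers of the mesothelium that covers the testis, although the testes were decapsulated. The summed level of the 4 mesothelium markers in the table was 39.2 CPM in WT1, 7.26 to 12.8 CPM in the other WT mice and 6.23 to 13.8 CPM in the Rfx2-/- mice, and all 4 had negative log2 fold changes. One of them, Lrrn4, stood less apart, with 9.58 CPM in WT1 and 5.64 to 8.01 CPM in the other WT mice. Of the 44 collagen genes, 11 had their highest value of all mice in WT1, namely Col6a5, Col7a1, Col9a1, Col9a3, Col10a1, Col12a1, Col14a1, Col16a1, Col19a1, Col27a1 and Col28a1. The share of all genes with their highest value in WT1 was not taken. Among the 11, Col6a5, Col12a1 and Col27a1 also rose with the round spermatid score, and WT1 had the highest score of the WT mice. The part of mesothelium in these values was not tested.

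Genes whose products modify, fold, cross-link, bind or degrade collagen, or inhibit its degradation, were followed as partners. Of 74 listed genes 73 were in the table and 68 were tested, 63 had negative log2 fold changes (54.8% of all genes), and the median was -0.39 (-0.05 for all genes). Called lower was Loxl1, a lysyl oxidase that cross-links elastin and collagen, and called higher was Nid2, which links laminin to type IV collagen in basement membranes. These are 1 of 68 each, beside 1.94% of all genes called lower and 0.730% called higher. At an adjusted p of 0.05, 12 partners were lower (8.78% of all genes) and 1 higher (6.15%).

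Nid2 (ENSMUSG00000021806, chromosome 14) had 63.5, 59.7, 60.9, 60.7 and 55.5 CPM in WT1 to WT5 and 97.8 to 119 CPM, with a median of 108 CPM, in Rfx2-/- mice. The genotypes did not overlap, and the log2 fold change was 0.86 ± 0.06 (adjusted p = 1.5e-05, edgeR). Loxl1 (ENSMUSG00000032334, chromosome 9) had 25.9, 25.3, 19.0, 18.4 and 24.2 CPM against 10.4 to 16.4 CPM, median 13.6 CPM, without overlap (-0.72 ± 0.13, adjusted p = 0.00830). With single mice left out, the call of Nid2 was kept in all 11 fits and that of Loxl1 only without WT4, with adjusted p-values up to 0.0261.

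Partners of each role gave the following values, for the 2 genes per role with the widest difference. Among modifying enzymes, all 13 tested were negative. P4ha3, a prolyl hydroxylase subunit, had -0.83 ± 0.22 (adjusted p = 0.0358) and P3h3 -0.60 ± 0.21 (adjusted p = 0.0641). P4ha3 was low in every mouse, with 0.472 to 0.795 CPM in WT and 0.218 to 0.435 CPM in Rfx2-/- mice. For folding and export, 6 of 7 tested genes were negative. Fkbp10 had -0.57 ± 0.15 (adjusted p = 0.0368) and Serpinh1, the collagen chaperone HSP47, had -0.44 ± 0.22 (adjusted p = 0.154). Of 6 tested genes of propeptide processing, 4 were negative. The protease genes Tll2 and Adamts14 had 0.50 ± 0.25 (adjusted p = 0.139) and -0.50 ± 0.29 (adjusted p = 0.207). All 5 cross-linking enzymes were negative, with Loxl3 at -0.42 ± 0.21 (adjusted p = 0.147).

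Collagen receptors were negative in 7 of 8 tested genes, led by the integrin genes Itga1 (-1.04 ± 0.30, adjusted p = 0.0428) and Itga2 (-0.74 ± 0.36, adjusted p = 0.140). Itga1 had 25.2, 16.6, 9.48, 8.13 and 7.26 CPM in WT1 to WT5 against 5.74 to 7.65 CPM in Rfx2-/- mice. Itga2 had 2.36, 1.61, 0.625, 0.736 and 0.817 CPM against 0.509 to 0.998 CPM. In both, WT1 and WT2 were the highest mice of the study. With single mice left out, the log2 fold changes shrank to as little as -0.68 and -0.36. Apart from Nid2, the 11 other basement membrane genes were negative, and Lama2, a laminin chain, had -0.73 ± 0.20 (adjusted p = 0.0398). All 10 genes of the fibril surface were negative, with the proteoglycan gene Lum at -0.77 ± 0.18 (adjusted p = 0.0256) and Thbs2 at -0.50 ± 0.31 (adjusted p = 0.221). The degradation list mixes proteases with the protease inhibitors Timp1, Timp2 and Timp3. All 7 of its tested genes were negative, Mmp2 at -0.65 ± 0.28 (adjusted p = 0.109) and the inhibitor gene Timp1 at -0.50 ± 0.14 (adjusted p = 0.0403). Those p-values are from edgeR over all tested genes.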

How the data were processed

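RNA of decapsulated testes was read as single reads from TruSeq libraries. The deposited table holds raw counts per gene, without normalization: the authors mapped reads to GRCm38, discarded reads with several positions, and counted with featureCounts reads on merged exons of protein coding transcripts, leaving out reads on exons of different genes. The submitters' processing notes name CASAVA 1.8.2, STAR 2.4 and featureCounts 1.4.6. The study's methods give more than one read length and aligner, and whether counting used strand is not given in the sources used here, so overlapping genes on opposite strands are uncertain. Of the 23074 gene identifiers, 22293 matched GENCODE M21, which gave names, positions and exon lengths.

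The genotypes were compared on these counts with edgeR 4.0.16 in R 4.3.3 (filterByExpr by genotype, TMM, glmQLFit and glmQLFTest over all tested genes, no covariates). The threshold for a call was 0.01 on p-values adjusted after Benjamini and Hochberg. CPM are counts scaled to the TMM-adjusted library size, and RPKM are CPM per kb of merged exon. TMM factors lay between 0.894 and 1.18. The floor of 3 counts covers counting error only, whereas SDs and standard errors hold the spread between mice. DESeq2 1.42.0, limma 3.58.1 voom and the other settings of the closing section were alternatives; the slope on the round spermatid score and the chain pairs were added after seeing the data. The tests were tried on simulated data with 200 planted changes. The planted genotype changes were wider than the difference of every collagen gene but Col9a1. That trial therefore does not show how often smaller differences would be called. Scores are means of log2 CPM with a prior count of 2.

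Genes were named if called, if at an adjusted p of at most 0.05, as the highest of their class per length, as one of the 3 widest remaining differences, or as a type IV pair; of partners, those called and the 2 widest of each role. The members and gene lists were chosen with earlier results of these data known. Promoter windows came from RefSeq (GRCm38.p6). Python 3.11.15, pandas 2.3.3 and matplotlib 3.10.9 served for tables and plots.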

Additional observations from a re-analysis of the deposited data

Results flagged for a closer look

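Single mice stood far from the rest of their genotype in 6 of the 88 groups examined (44 genes in each genotype, by Dixon's ratio at the 95% level); chance flags about 1 in 20 groups. In wild type replicate 1, Col22a1 (99.46 CPM against 10.76 to 30.88 CPM in the other wild type mice), Col27a1 (11.13 against 2.733 to 4.474 CPM) and Col19a1 (1.691 against 0.06287 to 0.3364 CPM) were high. Col3a1 was low in wild type replicate 4, with 220.9 CPM against 367.4 to 423.2 CPM. Among the Rfx2-/- mice, Col6a4 was high in replicate 7 (46.82 against 23.03 to 29.49 CPM) and Col26a1 in replicate 11 (3.614 against 1.423 to 1.94 CPM).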

How the results depend on the processing

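No paired analysis was possible because the genotypes share no replicate numbers and the labels give no litters, although the methods mention littermates. Col9a1 was called lower in every fit, and no collagen gene was called higher in any. The 2 collagen genes called lower became 6 with DESeq2's Wald test, 3 with the spermatid covariate and 8 at an adjusted p of 0.05. They became 1 with a filter of at least 1 count or with the somatic covariate. With each mouse left out there were 1 to 3. Partners called lower, 1 in the reported fit, numbered 2 with total counts as library sizes, 8 with DESeq2's Wald test, 5 with limma voom, 5 with the spermatid covariate, 12 at an adjusted p of 0.05, and 0 with a filter of at least 1 count, with the somatic covariate or at a fold change of more than 2; with each mouse left out there were 0 to 2. Of partners called higher, 0 passed a fold change of more than 2. Collagen genes rising with the spermatid score, 5 in the reported fit, were 2 without the 2 mice farthest from the median score and 1 to 7 with each mouse left out. Falling ones, 1 in the reported fit, were 0 without those 2 mice and 0 to 13 with each mouse left out. Shares of all genes called are given above for the reported fits and were not taken for the other fits. Counts of collagen and partner genes in those other fits therefore stand without that comparison. For the log2 fold changes of 44 named collagen and partner genes, 824 refits kept the direction and the side of the threshold, 23 lost a call (Col14a1 and Loxl1), 14 gained one (9 genes) and 15 turned the sign (7 genes). Signs turned for Col28a1 (0.0198 with DESeq2's size factors, 0.0205 with its Wald test, 0.086 with voom), Col4a3 (0.0132 with voom, 0.11 with the somatic covariate), Col4a4 (0.0169) and Adamts14 (0.0494), the last 2 with the somatic covariate. With each mouse left out, the log2 fold change ran from -0.21 to 0.0711 for Col16a1, from -0.0538 to 0.0961 for Col28a1, from -0.77 to 0.48 for Col12a1 and from -0.58 to 0.0541 for Col9a2. The cause was not tested, beyond fewer samples or more tested genes in the fits concerned. Depth limits Col9a2, Col10a1 and Col19a1, where libraries held few counts.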
